A study of Rattus norvegicus with 12 samples.

Results

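Amino acid transporters are membrane proteins that move amino acids into, out of and between the compartments of a cell. The genes described here are the 43 gene names on the array that start with Slc1a, Slc3a, Slc7a, Slc36a, Slc38a or Slc43a followed by a digit, out of 21904 genes with a name. They comprise 42 transporters and Slc7a6os, a gene on the opposite strand beside Slc7a6 that encodes no transporter and was matched by its name. Of these 43 genes, 14 had a good flag from the scanner software on at least 6 of the 12 arrays (13 transporters and Slc7a6os), and these are called expressed below. The other 29 are called dim, since their spots were flagged good on 0 to 5 arrays.

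The study asked how transcripts of the rat colon respond to more dietary protein. RNA came from samples labelled as colonic epithelium of male Wistar rats, with a starting weight given as 180 to 200 g. The samples were taken after 6 weeks on a high protein diet (6 arrays) or a normal protein diet (6 arrays). Each sample was labelled with Cy3 and hybridised to an Agilent rat array with 4 arrays on a slide. Nothing in the labels says that replicates came from separate animals, so the p-values measure the spread between these samples, and neither the age of the rats nor the composition of the diets is stated.

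Transporters of the Slc7 family fall into cationic amino acid transporters, which work alone, and light chains, which reach the cell surface bound to a heavy chain of the Slc3 family. The Slc38 and Slc1 carriers use sodium, the Slc36 carriers use protons, and the Slc43 carriers are facilitators. In the gut they take up luminal amino acids, pass them to the blood and supply glutamine and glutamate to the epithelium, and several are known targets of the response to amino acid shortage.

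Facts of the arrays as a whole bear on these genes. Between 42.67% and 55.86% of gene spots were flagged good per array, and the upper quartile of background-subtracted signal lay between 133 and 387 intensity units, lowest in normal protein replicate 3. All 10 listed epithelial markers were tested, with mean levels of 11.90 to 12.68 in high protein samples and 11.98 to 12.71 in normal protein samples (log2 intensity). All 8 listed smooth muscle markers were tested too, with mean levels of 10.64 to 11.73 in high protein samples and 11.35 to 11.86 in normal protein samples, so the samples did not hold epithelium alone. In such bulk samples, fewer cells of a type and less RNA per cell cannot be told apart. Arrays of both diets differed in genes that mark position along the colon. Hoxb6 was at 10.82 and above in high protein replicates 3 and 4 and normal protein replicate 6, and at 7.49 and below in the other 9 arrays. These 3 arrays therefore stood apart, and results that rest on them are given with and without them.

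The transporter types are given with the count of their genes that were expressed, and differences between these small counts were not tested. Of 11 Slc38 genes, 5 were expressed (Slc38a1, Slc38a2, Slc38a5, Slc38a7 and Slc38a10). Of 7 Slc1 genes, 2 were expressed (Slc1a1 and Slc1a5), and of 2 heavy chains, 1 (Slc3a2). Of 10 light chains, 2 were expressed (Slc7a6 and Slc7a8), and of 5 cationic transporters, 2 (Slc7a1 and Slc7a14). Of 3 Slc43 facilitators, 1 was expressed (Slc43a3), and of 4 Slc36 carriers, 0. Over all 21904 named genes of the array, 47.7% passed the same filter. A good flag on all 12 arrays was given to 6 of the 14 expressed genes (Slc3a2, Slc7a1, Slc7a8, Slc7a14, Slc38a2 and Slc7a6os), whereas Slc7a6 and Slc38a7 had it on 6 arrays, the fewest that pass. For some expressed genes the good flags were unequal between the diets. Slc38a10 had a good flag on 5 high protein and 6 normal protein arrays, and Slc43a3 on 6 and 5. The gap was wider for 3 genes. Slc1a1 and Slc38a1 each had a good flag on 6 high protein and 3 normal protein arrays, and Slc38a7 on 5 high protein arrays and 1 normal protein array.

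**Figure D1:**
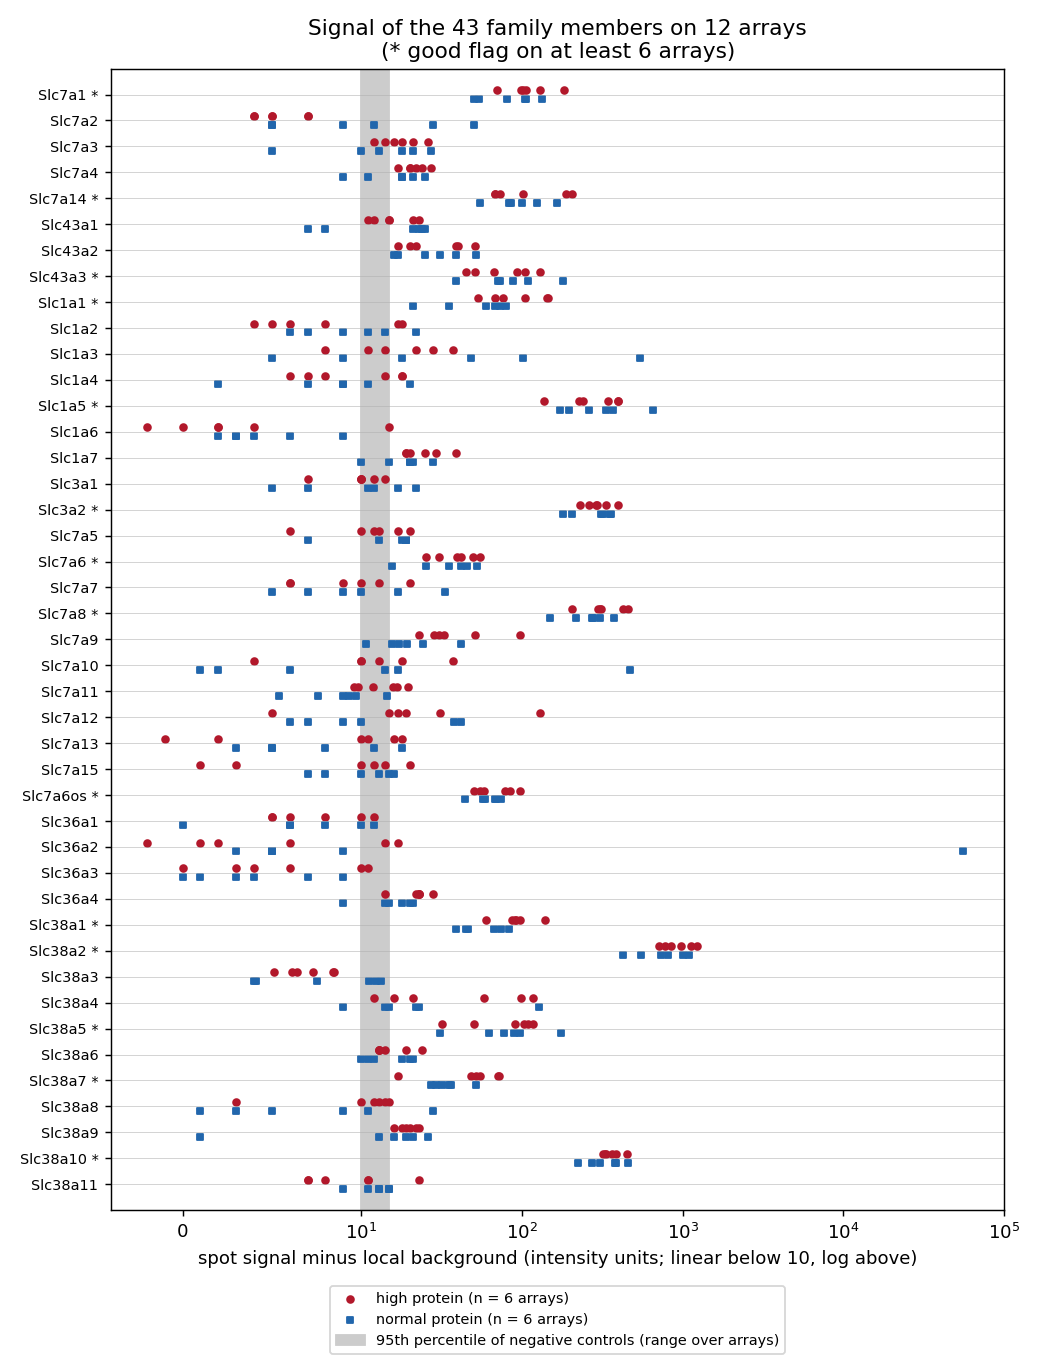
Spot signal minus local background (x axis, intensity units, linear below 10 and on a log scale above) for each of the 43 genes (rows, grouped by transporter type), with high protein arrays as red circles above normal protein arrays as blue squares. The grey band spans the 95th percentile of negative control spots on the 12 arrays (10 to 14.8 units); the 14 starred genes lie above it on every array, while Slc36a2, Slc1a3 and Slc7a10 each have a far higher point on normal protein replicate 6.

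The 29 dim genes were not all at background. The 95th percentile of negative control spots lay between 10 and 14.8 intensity units, and 13 of the 29 dim genes exceeded it on at least 6 arrays. Slc43a2, a facilitator of branched-chain and aromatic amino acids, did so on all 12 arrays and was flagged good on 3. Its signal had a lowest, median and highest value of 16, 28 and 52 units over the 12 arrays. Dim genes with 1 to 5 good flags were Slc1a3, Slc7a9, Slc7a10, Slc7a12, Slc38a4 and Slc43a2. The remaining 23 had no good flag on any array: Slc1a2, Slc1a4, Slc1a6, Slc1a7, Slc3a1, Slc7a2, Slc7a3, Slc7a4, Slc7a5, Slc7a7, Slc7a11, Slc7a13, Slc7a15, Slc36a1, Slc36a2, Slc36a3, Slc36a4, Slc38a3, Slc38a6, Slc38a8, Slc38a9, Slc38a11 and Slc43a1. Among them are the light chain Slc7a5, which carries large neutral amino acids, at 6 to 20 units, and the cystine exchanger Slc7a11, at 5.4 to 19.5 units. The heavy chain Slc3a1, partner of Slc7a9 in cystine uptake in kidney and small intestine, was at 5 to 22 units. A dim probe limits what its signal can show, and these values do not mean that the transcript is absent.

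Some dim genes were bright on few arrays. Slc1a3, a glutamate carrier known from glia, reached 543 units in normal protein replicate 6 and 102 units in normal protein replicate 5, and was at 48 units or below on the other 10 arrays. Slc7a10, a carrier of small neutral amino acids also known from astrocytes, was at 469 units in normal protein replicate 6 and at 37 or below elsewhere. The mean level of the enteric neuron and glia markers (4 tested) was also highest in that sample. It ran from 7.21 to 7.96 in high protein samples and from 7.38 to 7.77 in 5 normal protein samples, and was 8.56 in normal protein replicate 6. That high mean rested on S100b, whose normal protein levels had a median of 7.18 and a highest value of 11.72. For Uchl1, Elavl4 and Tubb3 the highest normal protein levels were 9.41, 6.77 and 7.42, near their medians of 9.10, 6.55 and 7.22. The part of these cells in the Slc1a3 and Slc7a10 values was not tested. Slc7a12 stood at 130 units in high protein replicate 2 and at 42 or below elsewhere. The light chain Slc7a9 had 96.9 units in high protein replicate 6 and 51 in high protein replicate 2, with 10.7 to 42 units on the other 10 arrays. These units are not scaled between arrays, and high protein replicate 6 had the highest upper quartile of signal (387 units). After normalization Slc7a9 was at 6.93 in high protein replicate 6 and 6.80 in high protein replicate 2 (log2). With no filter on dim probes, 0 of the 29 dim genes had an unadjusted p under 0.05 for diet, where 5.74% of all 21904 genes did (limma), and the smallest among the 29 was 0.0617.

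The diets were then compared for the 14 expressed genes. Their normalized log2 intensities came from a fit of all 10449 genes that passed the filter. Each difference is the high protein mean less the normal protein mean. No gene of the array was called (0% at an adjusted p under 0.05, limma with Benjamini-Hochberg adjustment), and thus no transporter either. At an unadjusted p under 0.05, 692 genes differed, 3.67% of all tested genes being higher and 2.96% lower on high protein. Among the transporters, 2 were higher at that level (Slc38a1 and Slc1a1) and none was lower. Both had a good flag on 6 high protein and 3 normal protein arrays, and so passed the filter through the diet where they were higher. That limits what the count says of direction. Of the 14 genes, 7 had a difference above 0 and 7 below, where 51.5% of all genes lay above. Their median difference was -0.02 on the log2 scale, against 0.01 for all genes. The diets overlapped for all 14 genes, as they did for nearly all genes of the array (0.287% did not overlap with high protein higher and 0.0957% with high protein lower). The 95% interval stayed inside a 1.5-fold change in either direction for 10 of the 14, and inside a 2-fold change for all 14. Over all genes, 84.7% had such an interval within 1.5-fold. These bounds depend on the processing, since an offset of 50 units was added and shrinks fold changes of weak signals. In the submitters' value table (described below) the differences were 0.70 ± 0.33 for Slc1a1, -0.45 ± 0.43 for Slc38a5 and 0.86 ± 0.89 for Slc7a6 (SE). For the brighter Slc38a2 and Slc38a10 they were 0.07 ± 0.17 and -0.12 ± 0.10 there (SE). The cause of these shifts was not tested.

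**Figure D2:**
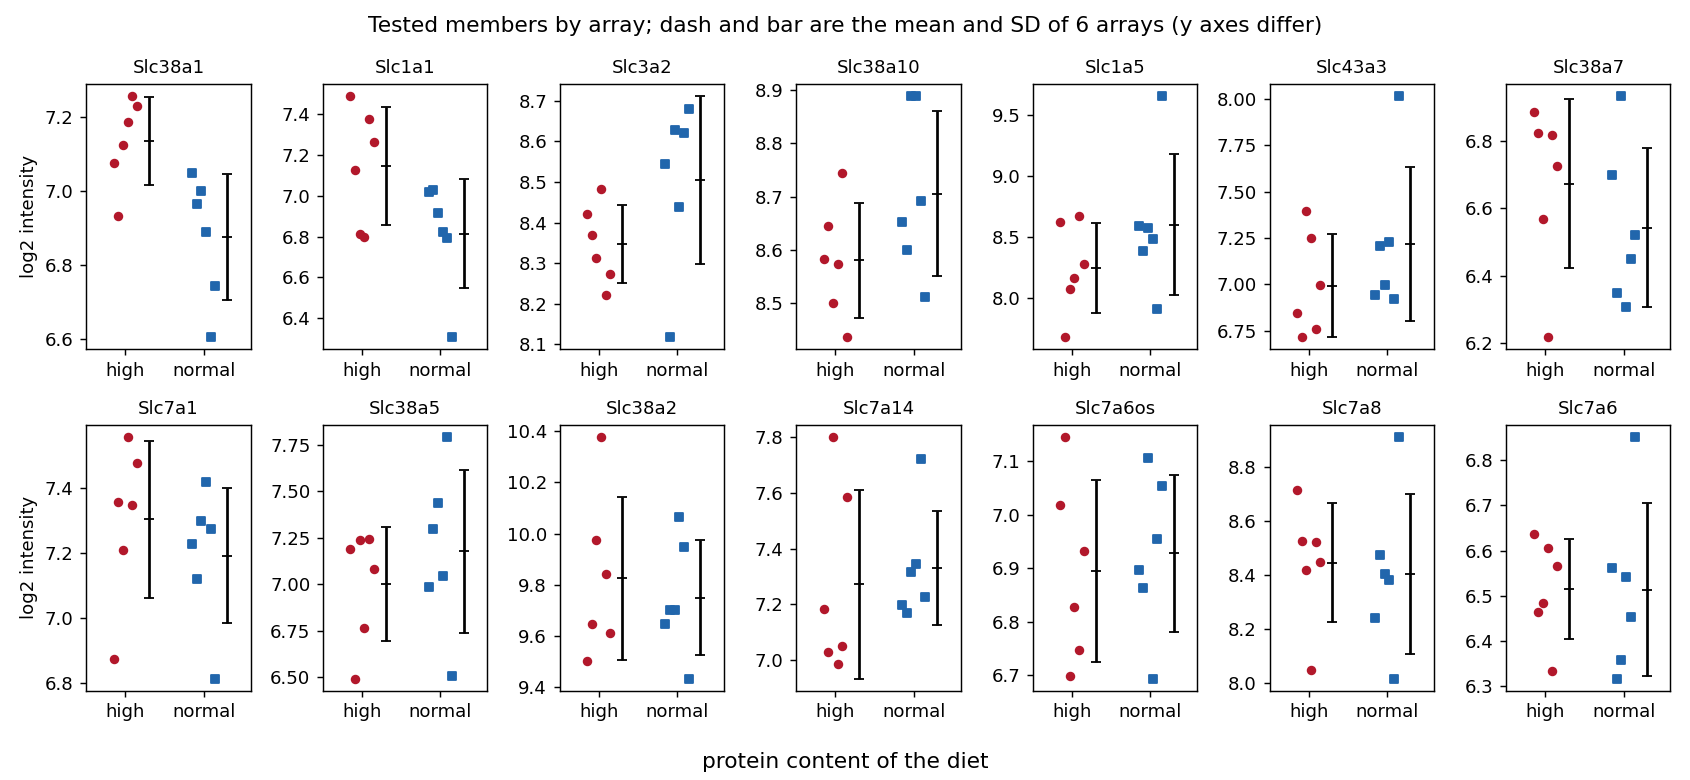
Normalized log2 intensity (y axis, a scale of its own per panel) of the 14 expressed genes in each sample, with high protein left (red circles) and normal protein right (blue squares), and the mean ± SD of 6 arrays as a black dash and bar. The diets overlap in every panel; in the Slc38a1 panel all 6 high protein points lie above the normal protein mean of 6.87.

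Slc38a1 is a sodium-coupled carrier that brings glutamine and other neutral amino acids into the cell. It had a lowest, median and highest level of 6.93, 7.15 and 7.26 in high protein samples, against 6.60, 6.93 and 7.05 in normal protein samples. All 6 high protein samples lay above the normal protein mean, yet the lowest high protein sample (replicate 2) lay below 3 of the normal protein samples. The means were 7.13 ± 0.12 and 6.87 ± 0.17 (SD, n = 6 each), a difference of 0.26 (95% interval 0.06 to 0.45, 1.20-fold). Its unadjusted p was 0.0129 and its adjusted p 0.701 over all genes (limma). Within slides the difference was -0.02 on slide 1, 0.53 on slide 2 and 0.26 on slide 3, so it was absent on 1 slide of 3, each with 2 arrays per diet. With arrays scaled to their 75th percentile the difference was 0.17 with an unadjusted p of 0.137, on a scale where the median of all genes was -0.03 (limma). Without the 3 arrays that stood apart it was 0.22 (unadjusted p = 0.0698, limma).

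The promoter of Slc38a1 is shown because it holds the letters TGATGNAA, as 1 of 2 among the 10 expressed genes with a promoter sequence at hand. These letters are the core of the element bound by ATF4 together with C/EBP factors in genes of the amino acid response. For Slc1a1, Slc1a5, Slc38a10 and Slc43a3 no promoter was at hand, so they were not searched. The second match is in Slc7a1, the main cationic amino acid transporter, whose values are given below. Both sequences are from RefSeq (GRCr8), run 5′ to 3′ along the gene over the 250 bases before its start, and carry the match in capitals. They lie at chr7:129681402-129681651 on the minus strand and at chr12:11664238-11664487 on the plus strand.
Slc38a1: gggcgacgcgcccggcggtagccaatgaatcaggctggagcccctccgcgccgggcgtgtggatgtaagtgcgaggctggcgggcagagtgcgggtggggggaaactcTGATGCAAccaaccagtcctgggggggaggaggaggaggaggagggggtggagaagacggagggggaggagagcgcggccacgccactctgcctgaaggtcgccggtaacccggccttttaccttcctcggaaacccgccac
Slc7a1: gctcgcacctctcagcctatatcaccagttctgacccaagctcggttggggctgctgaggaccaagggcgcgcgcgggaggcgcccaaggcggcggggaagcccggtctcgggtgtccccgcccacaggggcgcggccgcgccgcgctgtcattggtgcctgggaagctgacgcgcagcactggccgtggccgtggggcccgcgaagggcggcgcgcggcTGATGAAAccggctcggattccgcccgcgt

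The match begins 142 bases before the start in Slc38a1 and 30 bases before it in Slc7a1, on the strand of the gene in both. The motif was searched on both strands. It was present in 3 of the 33 family genes with a promoter in the table (Slc1a4, Slc38a1 and Slc7a1) and in 3.27% of the promoters of all 27457 genes. A match of letters describes the sequence and is no evidence of binding.

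Slc38a1, Slc38a2 and Slc38a4 follow each other in the RefSeq order of protein-coding genes, with Slc38a2 in the middle. Slc38a2, a carrier of small neutral amino acids that cells are known to raise during amino acid shortage, had levels of 9.50, 9.74 and 10.38 (lowest, median, highest) in high protein samples, against 9.43, 9.70 and 10.06 in normal protein samples. The ranges nearly coincided, with a difference of 0.08 ± 0.15 (SE) and an unadjusted p of 0.621 (limma). Slc38a4 was dim, and its values by array are given with the position results. Slc38a7, a glutamine carrier of the lysosome, had levels of 6.22, 6.77 and 6.89 in high protein samples, against 6.31, 6.48 and 6.93 in normal protein samples. In 5 of 6 high protein samples it was above the normal protein mean, but the ranges overlapped nearly in full (difference 0.13 ± 0.13, SE).

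Slc38a10 had levels of 8.44, 8.58 and 8.74 in high protein samples, against 8.51, 8.67 and 8.89 in normal protein samples. It was lower than the normal protein mean in 5 high protein samples of 6, and the difference was -0.13 ± 0.08 (SE, unadjusted p = 0.162, limma). Slc38a5, which carries glutamine, asparagine and histidine in either direction, had levels of 6.49, 7.14 and 7.25 in high protein samples, against 6.51, 7.17 and 7.79 in normal protein samples. The medians of Slc38a5 were close and its difference of -0.17 ± 0.20 (SE) was smaller than its error.

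Slc1a1, the glutamate and aspartate carrier of epithelia and neurons, had levels of 6.80, 7.20 and 7.49 in high protein samples, against 6.31, 6.87 and 7.03 in normal protein samples. The 2 lowest high protein samples, replicates 3 and 4, lay within the normal protein range, while the other 4 lay above all normal protein samples. The means were 7.14 ± 0.29 and 6.81 ± 0.27 (SD, n = 6 each), a difference of 0.33 (95% interval 0.01 to 0.66, 1.26-fold). Its unadjusted p was 0.0462 and its adjusted p 0.726 (limma). Within slides 1, 2 and 3 the difference was 0.34, 0.48 and 0.17. It was 0.29 with position along the colon in the fit (unadjusted p = 0.0049, adjusted p = 0.460, limma). Without the 3 arrays that stood apart it was 0.40 (unadjusted p = 0.0017, adjusted p = 0.178, limma) and stayed short of the threshold. That fit held diet without the position score, which is defined below. The scores of the samples left ran from 5.17 to 5.57 on high protein and from -1.06 to 5.42 on normal protein. Slc1a1 rose with the score over all samples, so the value of 0.40 cannot separate diet from position. With 75th percentile scaling of all samples the diet difference of Slc1a1 was 0.24 with an unadjusted p of 0.139 (limma).

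Slc1a5, an exchanger of glutamine and other neutral amino acids, had the difference of largest size among the 14 genes and the widest interval. Its levels were 7.68, 8.22 and 8.67 in high protein samples, against 7.91, 8.53 and 9.66 in normal protein samples. The top value came from normal protein replicate 6, and without it the normal protein samples reached 8.59, inside the high protein range. The difference of -0.35 (95% interval -0.90 to 0.19) became -0.14 without that sample.

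The heavy chain Slc3a2, which carries several light chains to the surface, had levels of 8.22, 8.34 and 8.48 in high protein samples, against 8.12, 8.58 and 8.68 in normal protein samples. All 6 high protein samples lay below the normal protein mean, but normal protein replicate 2 lay below them all. The means were 8.35 ± 0.10 and 8.50 ± 0.21 (SD, n = 6 each), a difference of -0.16 (95% interval -0.37 to 0.05, unadjusted p = 0.125, limma).

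In the fit of normalized intensities both expressed light chains differed little between the diets. Slc7a8, which exchanges neutral amino acids at the basal side of epithelia, averaged 8.45 ± 0.22 in high protein samples and 8.40 ± 0.30 in normal protein samples (SD, n = 6 each), and its difference was 0.04 (95% interval -0.27 to 0.35). Slc7a6, which exchanges cationic for neutral amino acids, had levels of 6.33, 6.52 and 6.64 in high protein samples, against 6.32, 6.50 and 6.85 in normal protein samples. Its difference was 0.00 with a 95% interval of -0.20 to 0.21, but 0.86 ± 0.89 (SE) in the submitters' value table. Slc7a6 was measured by 10 spots per array, whose SD within an array had a median of 0.08 and reached 0.17, while the SD between arrays was 0.11 in high protein samples and 0.19 in normal protein samples. The other expressed genes had 1 spot per array.

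Of 8 listed pairs of a heavy chain with a light chain, both partners were expressed in 2, and their levels were correlated over the 12 arrays. Slc3a2 and Slc7a6 had a Pearson r of 0.52 (permutation p = 0.0824, adjusted over the 2 pairs 0.165) and a Spearman rho of 0.41 (permutation p = 0.193). Without the 2 arrays farthest from the median of Slc3a2, r was 0.03, so the relation rested on those samples. Slc3a2 and Slc7a8 had r = -0.10 (permutation p = 0.757) and rho = -0.28 (permutation p = 0.380), and without the 2 farthest arrays r was -0.57 (permutation p = 0.0874) and rho -0.67 (permutation p = 0.0398). Neither pair passed a threshold of 0.05 after adjustment of the p of r over the 2 pairs, but with 75th percentile scaling Slc3a2 and Slc7a6 did (r = 0.66, adjusted permutation p = 0.0360).

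The cationic transporters Slc7a1 and Slc7a14 and the opposite-strand gene Slc7a6os stayed close between diets. Slc7a1 had levels of 6.88, 7.35 and 7.56 in high protein samples, against 6.81, 7.25 and 7.42 in normal protein samples, with a difference of 0.11 ± 0.12 (SE). Slc7a1 and Slc7a14 each had 2 probes, and the brighter stood for the gene. The other Slc7a1 probe was flagged good on 0 arrays (4 to 24 units), and the other Slc7a14 probe on 5 (19 to 74 units). Slc7a14, known as a lysosomal protein of neurons, averaged 7.27 ± 0.34 in high protein samples and 7.33 ± 0.21 in normal protein samples (SD, n = 6 each). Slc7a6os, next to Slc7a6 on the chromosome, had levels of 6.70, 6.88 and 7.15 in high protein samples, against 6.69, 6.93 and 7.10 in normal protein samples. Its difference was -0.03 ± 0.10 (SE).

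Slc43a3, the member of its family known to carry purine nucleobases, had levels of 6.71, 6.92 and 7.40 in high protein samples, against 6.92, 7.10 and 8.02 in normal protein samples. Normal protein replicate 6 was the highest sample by a wide margin. The difference was -0.22 (95% interval -0.63 to 0.18), and it was -0.06 without that sample.

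**Figure D3:**
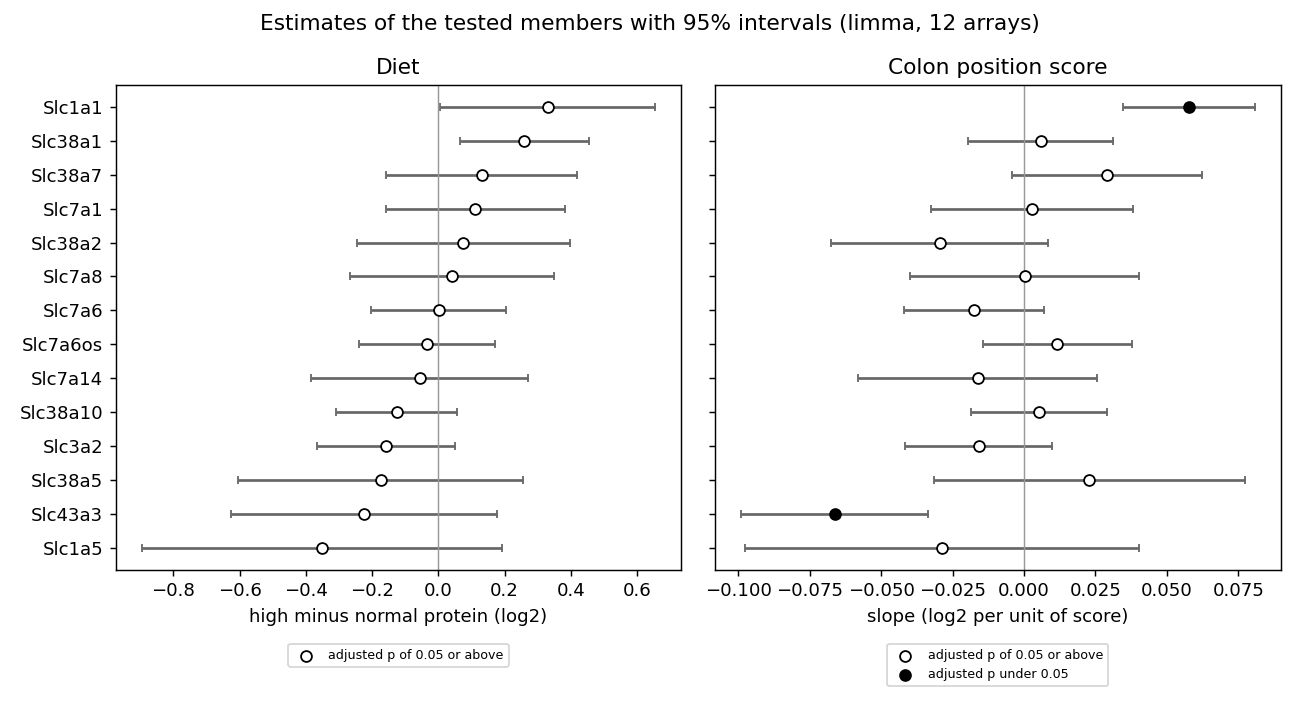
Estimates (points) and 95% intervals (bars) of the 14 expressed genes from limma over 12 arrays, with the diet difference on the left (high minus normal protein, log2) and the slope on the position score on the right (log2 per unit of score). Filled points mark an adjusted p under 0.05: no gene on the left, and Slc1a1 (0.058) and Slc43a3 (-0.066) on the right.

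Genes that handle amino acids by other means, and genes of the response to amino acid shortage, were examined beside the 14. Of 24 listed other amino acid carriers and partners, 20 were on the array and 9 were tested. Of these 9, none was called for diet and none had an unadjusted p under 0.05 (limma), and 6 lay above 0. Their median difference was 0.04. Of 27 listed genes of the shortage response, 20 were tested and none was called for diet. At an unadjusted p under 0.05, 2 of the 20 were higher and 0 lower (limma), where 3.67% and 2.96% of all tested genes were. Eif2ak4, the kinase that senses uncharged tRNA, averaged 8.48 ± 0.13 in high protein samples and 8.22 ± 0.21 in normal protein samples (SD, n = 6 each), a difference of 0.26 (unadjusted p = 0.0252, adjusted p = 0.707, limma). The transcription factor Cebpb averaged 9.80 ± 0.20 in high protein samples and 9.56 ± 0.14 in normal protein samples (SD, n = 6 each), a difference of 0.24 (unadjusted p = 0.0363, adjusted p = 0.726, limma). Atf4, the main transcription factor of the response, had a difference of -0.14 ± 0.10 and asparagine synthetase, Asns, one of -0.08 ± 0.29 (SE). Of the 20 genes 7 lay above 0 and 13 below, with a median of -0.07.

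Position along the colon was followed with a score on the log2 scale, the level of Hoxb13 less the average of Hoxb6 and Hoxb7. Hoxb13 is known to be expressed towards the rectal end of the gut, and Hoxb6 and Hoxb7 nearer its start in the colon. The score was 5.17, 5.57, -4.72, -3.15, 5.20 and 5.44 in high protein replicates 1 to 6, and 4.87, 5.42, 1.71, -1.06, 2.40 and -4.44 in normal protein replicates 1 to 6. It therefore ranged over 10.3 units, with low samples on both diets and a difference of 0.77 between diet means. In a fit with diet and score over all 10449 genes, 3.41% were called higher and 2.54% lower with the score (adjusted p under 0.05, limma). Of the 14 expressed transporter family genes, Slc1a1 was called higher and Slc43a3 lower. The median slope was 0.0014 for the 14 genes and 0.00095 for all genes.

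Slc1a1 was higher towards the Hoxb13-rich end, by 0.058 ± 0.011 per unit of score (SE, adjusted p = 0.0071, limma), or 0.59 over the whole range. Its 6 levels in the samples with scores of 4.87 and above were 7.49, 7.13, 7.38 and 7.26 on high protein and 7.02 and 7.03 on normal protein. In the 6 samples with lower scores they were 6.81 and 6.80 on high protein and 6.92, 6.82, 6.79 and 6.31 on normal protein. The levels of these sets of samples did not overlap, but the sets were split on the same score and add no test to the slope. How many other genes of the array separate in this way was not counted. The slope was 0.053 ± 0.015 over high protein samples alone and 0.065 ± 0.018 over normal protein samples alone (SE), so it had the same sign on both diets, although neither passed on 6 arrays (adjusted p = 0.128 and 0.20, limma). It was called with any of the 12 arrays left out. Without the 3 arrays that stood apart the slope was 0.030 ± 0.027 (SE) and was no longer called (unadjusted p = 0.290, limma).

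Slc43a3 was lower towards the Hoxb13-rich end, by -0.066 ± 0.015 per unit of score (SE, adjusted p = 0.0227, limma), or -0.68 over the whole range. Its highest levels were 7.40 and 7.25 in high protein replicates 3 and 4 and 8.02 in normal protein replicate 6, which are the 3 samples with the lowest scores. The slope was -0.054 ± 0.013 over high protein samples alone and -0.087 ± 0.029 over normal protein samples alone (SE). The call did not survive leaving out high protein replicate 2 (adjusted p = 0.0509), high protein replicate 3 (adjusted p = 0.0750) or normal protein replicate 6 (slope -0.046, adjusted p = 0.0581, limma). With the slide as a block the adjusted p was 0.105 (limma), and without the 3 arrays that stood apart the slope was -0.014 ± 0.029 (SE). Of 4 endothelial markers 3 were tested (Cdh5 being too dim), and their mean level was highest in high protein replicate 3 (9.20) and normal protein replicate 6 (9.79) of their diets. In high protein replicate 4, where Slc43a3 was also high, it was 8.62. Over all samples it ran from 8.54 to 9.20 on high protein and from 8.52 to 9.79 on normal protein. Their part in the Slc43a3 slope was not tested.

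**Figure D4:**
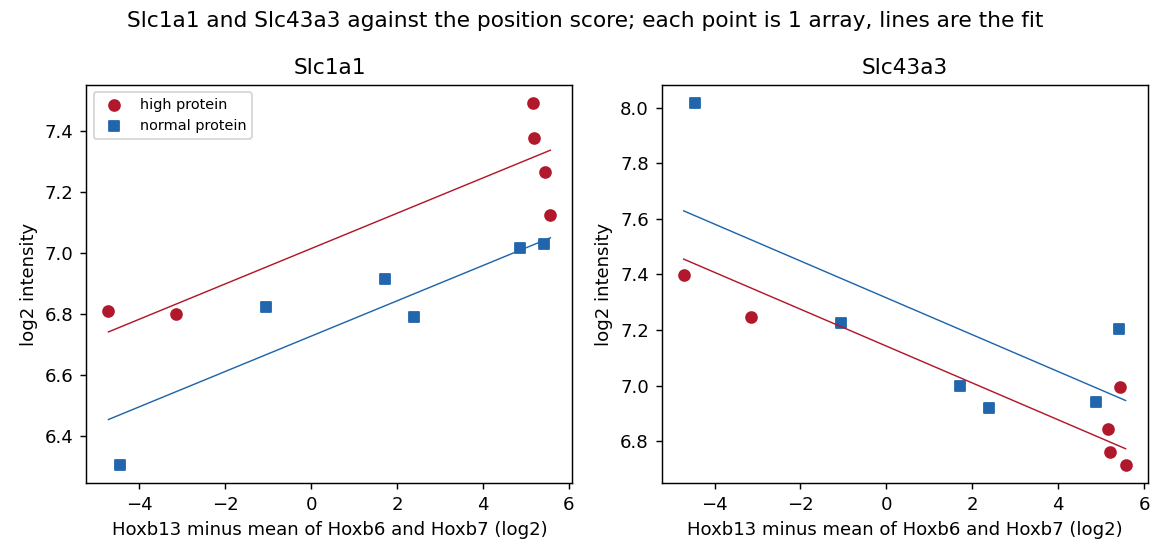
Normalized log2 intensity (y axes) of Slc1a1 (left) and Slc43a3 (right) against the position score (x axes, log2), with each sample as a point (high protein red circles, normal protein blue squares) and the fitted lines of the model with diet and score. The points of Slc1a1 slope upwards and those of Slc43a3 downwards on both diets, and the 3 samples below -3 are high protein replicates 3 and 4 and normal protein replicate 6.

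The slopes of the other expressed genes did not pass the threshold. The nearest above 0 was Slc38a7 at 0.029 ± 0.015 (SE, unadjusted p = 0.0800, adjusted p = 0.314, limma). Slc7a6os and Slc38a5 followed at 0.012 ± 0.012 and 0.023 ± 0.025 (SE). The nearest below 0 was Slc38a2 at -0.030 ± 0.018 (SE, unadjusted p = 0.117, adjusted p = 0.381, limma), and it was called lower without normal protein replicate 6 (slope -0.054, adjusted p = 0.0480, limma). Slc7a6 and Slc3a2 came next at -0.018 ± 0.011 and -0.016 ± 0.012 (SE). Slc38a1 had a slope of 0.006 ± 0.012 (SE), with a 95% interval from -0.019 to 0.031. No gene of the 14 passed the test for a difference in slope between the diets, the smallest adjusted p of that interaction being 0.566 (limma).

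Slc38a4, a carrier of neutral amino acids known from liver and placenta, showed a pattern by sample although it failed the filter. Its signal was 99 and 118 units in high protein replicates 3 and 4 and 127 units in normal protein replicate 6, the same 3 samples in which Hoxb6 and Hoxb7 were high. It was 58 in high protein replicate 2, a sample with a score of 5.57, and 9 to 23 on the other 8 arrays. These 4 bright values were those flagged good. With no filter on dim probes its slope was -0.11 ± 0.03 (SE, adjusted p = 0.0372, limma), where 1.08% of 21904 genes were called lower with the score, and it was the 1 dim gene of 29 called in either direction. With each of the 12 arrays left out in turn the slope stayed between -0.13 and -0.09, but it was called in only 2 of these 12 fits (adjusted p from 0.0150 to 0.115, limma). Without the 3 arrays that stood apart it was -0.009 ± 0.047 (SE), with an unadjusted p of 0.853 (limma). Slc38a2, next to it, and Slc38a1, on the far side of Slc38a2, had no called slope in the fit of all samples, and in these 3 samples Slc38a1 was at 45 to 97 units among 39 to 139 units over all arrays.

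**Figure D5:**
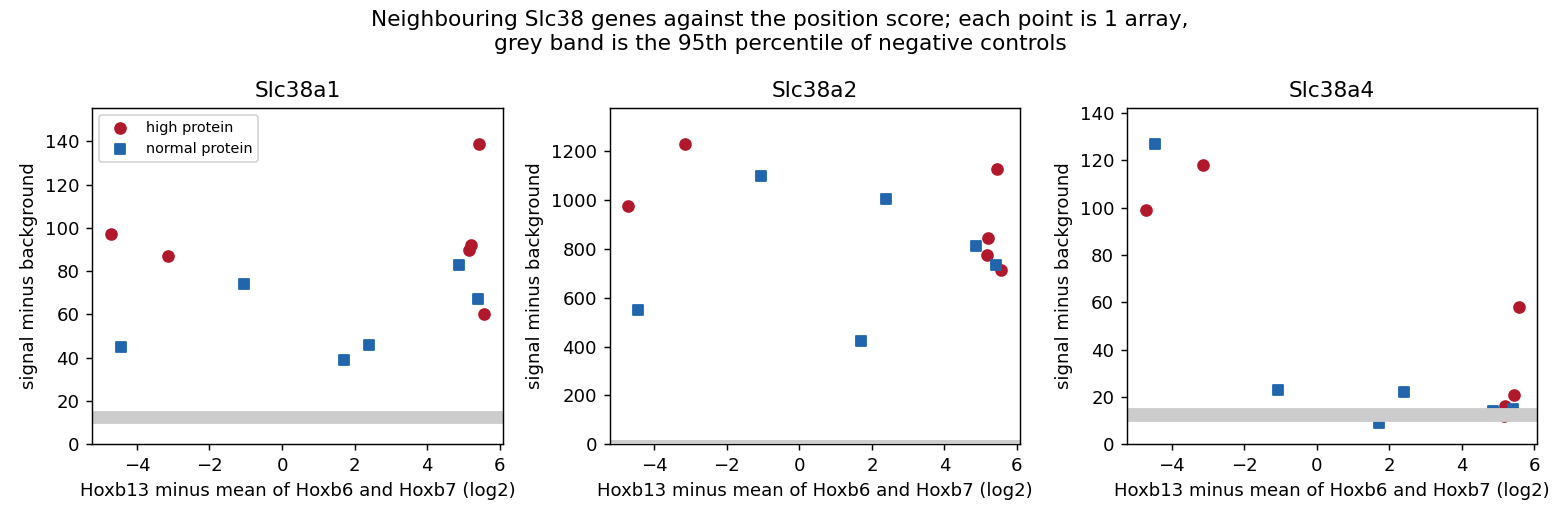
Signal minus background (y axes, intensity units from 0, a scale of its own per panel) of the consecutive genes Slc38a1, Slc38a2 and Slc38a4 against the position score (x axes, log2), with high protein samples as red circles and normal protein samples as blue squares. The grey band is the 95th percentile of negative controls over the arrays; the 3 samples with the lowest scores hold the 3 highest Slc38a4 points (99 to 127 units), while Slc38a1 and Slc38a2 are spread across the score.

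Among the other amino acid carriers, 1 of 9 was called higher and 1 lower with the score, where 3.41% and 2.54% of all tested genes were. The taurine carrier Slc6a6 had a slope of -0.052 ± 0.014 (SE, adjusted p = 0.0465, limma), and the mitochondrial carrier of basic amino acids Slc25a29 one of 0.064 ± 0.017 (SE, adjusted p = 0.0470, limma). With each of 12 arrays left out in turn, Slc6a6 was called 3 times and Slc25a29 4 times. Without the 3 arrays that stood apart the slopes were -0.057 ± 0.035 and 0.048 ± 0.041 (SE), and neither was called. Among the 20 genes of the shortage response, Nupr1, a stress-induced chromatin protein, was called lower with the score at -0.19 ± 0.03 per unit (SE, adjusted p = 0.0021, limma). Its levels had a lowest, median and highest value of 9.25, 9.96 and 11.86 in high protein samples, against 9.81, 11.04 and 11.23 in normal protein samples. It was called with any 1 of the 12 arrays left out, whereas without the 3 arrays that stood apart the slope was -0.22 ± 0.06 (SE) and was not called (adjusted p = 0.432, limma). No gene of that list was called higher.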

How the data were processed

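Per the file headers, the deposited files hold GenePix Pro 6.1.0.4 intensity values on a linear scale, read at 532 nm with a photomultiplier gain of 600 and not normalized. Deposited flags mark spots as good (100) or not found (-50), and some spots, such as Slc36a2 in normal protein replicate 6, carry 0. The lack of a good flag did not always mean a weak spot. Slc1a5, at 137 units or above on all arrays, was flagged good on 10. The series value table holds, per the labels, log2 values. The submitters' processing notes name RMA without a version, and other steps are not stated in the sources used here. Its identifiers were displaced by 1 row against the scanner values (Pearson r of 0.959 to 0.987 once moved), so it served as an alternative with identifiers moved. Its column medians were 4.39 to 4.41 for high protein and 4.36 to 4.45 for normal protein samples. Scale and direction follow from that match, and its centring is unknown.

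Normexp background correction (offset 50) used the mean pixel and median local background. Log2 values were then quantile normalized, and replicate spots averaged. The filter asked for a good flag on 0.5 or more of a probe's spots on 6 or more of 12 arrays, and the brightest probe stood for a gene. Of the 43 family genes, 33 had 1 probe. Names came from RefSeq accessions where they matched. Signals given in intensity units are mean pixel minus local background and are not scaled between arrays. The diet comparison was run in R 4.3.3 with limma 3.58.1 over 10449 genes, adjusted by Benjamini-Hochberg (threshold 0.05) and without a block. The position fit added the score. The fitting code was checked on artificial data with known answers. Correlations used scipy 1.17.1 with 100000 resamples. No 2 arrays were identical (correlations 0.923 to 0.985). The number of arrays limits the precision.

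The family, its subgroups, the gene lists and the position score were chosen with earlier results of these data known. Every family gene is named. Levels by sample are given for Slc38a1, Slc1a1 and Slc3a2 and for the 4 genes with the smallest p on each side of each fit, and the signals of other genes were chosen after they were seen. Alternatives covered background, scaling, filter, probe choice, value table, slide, replicate number, covariates and left-out arrays. The median of replicate spots, leaving out the 3 arrays with the lowest scores, and the arrays left out for Slc38a4 were chosen after seeing the data. Samples with the same replicate number correlated in their deviations from the diet means for numbers 1, 2 and 4 (0.40, 0.32 and 0.24) but not for numbers 3, 5 and 6 (-0.10, -0.03 and -0.11). Since the labels tie no number to a shared animal, litter or day, and not every pair exceeded 0.1, the numbers were not taken as pairs.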

Additional observations from a re-analysis of the deposited data

Results flagged for a closer look

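Among 28 sets of 6 samples (14 expressed genes, each diet), 3 held a sample far from the other 5 of its diet, where chance gives about 1 in 20. Slc1a1 was at 6.31 in normal protein replicate 6, and the nearest normal protein sample was at 6.79. Slc43a3 was at 8.02 in the same sample, the nearest being at 7.23. Slc7a14 was at 7.72 in normal protein replicate 5, the nearest being at 7.34. Apart from these sets, the spot of the dim gene Slc36a2, a proton-coupled carrier, was examined after its value was seen. It had a mean pixel of 55831 in normal protein replicate 6, the nearest of its diet being 45. Its local background was 242 there and 31 to 40 on the other 11 arrays, 68.0% of its pixels were saturated, and it was not flagged good. Slc36a2 was at 17 units or below on the other 11 arrays.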

How the results depend on the processing

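The count of called family genes for diet was 0 under every alternative run, with 0 to 3 at an unadjusted p under 0.05 (limma). For 5 of the 14 genes the sign of the diet difference was the same in all settings, and for 9 it was not. In the value table the differences of some genes were larger, at 0.54 for Slc38a1 and 0.70 for Slc1a1 (adjusted p of 0.746 and 0.765, limma). That of Slc7a6 was 0.86 ± 0.89 there (SE, adjusted p = 0.852, limma), against 0.00 in the main fit. The 2 calls on the position score became 1 (Slc1a1) with the slide as a block and with Hoxb13 alone as the score. Without the 2 arrays farthest from the median score, high protein replicate 3 and normal protein replicate 6, both were lost (Slc1a1 0.051, adjusted p = 0.120; Slc43a3 -0.038, adjusted p = 0.328) and 1 other gene was called, Slc38a2 (-0.076, adjusted p = 0.0232, limma). They became 0 over high protein samples alone, over normal protein samples alone, without the 3 arrays of lowest score and with a good flag asked for on 12 arrays, where neither Slc1a1 nor Slc43a3 was among the 6 family genes tested. They became 3 with no filter, and 1 to 2 with an array left out in turn. With the replicate number as a block, where samples of 3 of the 6 numbers matched their own number best, 0 were called on the score (Slc1a1 0.071, adjusted p = 0.0727; Slc43a3 -0.083, adjusted p = 0.0634, limma), and it changed no other call. The cause was not tested. Expressed genes numbered 20, 17, 12 and 6 with a good flag asked for on 1, 3, 9 and 12 arrays. Under 75th percentile scaling, 1 chain pair passed (Slc3a2 and Slc7a6, r = 0.66, permutation adjusted p = 0.0360). Dim probes near the negative controls limit what can be said of 29 genes.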

Other observations

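The slopes of 2 expressed carriers on the position score had opposite signs on the diets, without passing the test of the difference. Slc7a8 had a slope of 0.031 ± 0.016 over high protein samples and -0.052 ± 0.026 over normal protein samples (SE), with an unadjusted interaction p of 0.0224 and an adjusted p of 0.566 (limma). Slc1a5 had 0.019 ± 0.029 over high protein samples and -0.11 ± 0.04 over normal protein samples (SE), with an unadjusted interaction p of 0.0466 and an adjusted p of 0.632 (limma). In both genes normal protein replicate 6 held the highest level of all 12 samples, at 8.91 for Slc7a8 and 9.66 for Slc1a5.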
